A study of Mus musculus with 3 samples.

Results

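Solute carriers are membrane proteins that move sugars, amino acids, metals, lactate, nucleotides, ions and other solutes across the plasma membrane and the membranes of organelles. The genes described here are those whose symbol begins with Slc and a digit and that had at least 100 unique molecular identifiers (UMIs, each standing for 1 captured mRNA molecule) over all cells of the table. That rule kept 163 of the 250 genes so named, in a table of 17168 genes of which 11053 had at least 100 UMIs. The total over all cells chose the members and is given as a description only: Slc46a2 with 100 UMIs, Slc19a2 with 102 and Slc23a1 with 110 lay just inside the threshold, while Slc6a20b and Slc5a6 with 95 each and Slc8a1 with 90 lay just outside it. Because the total adds up all cells, the rule admitted genes used by the numerous T and B cells more easily than genes used by a rare class. A gene found almost only in a rare class passed through that class alone, as Slc11a1 and Slc7a8 did through macrophages (below). The higher calls of such a gene in that class are a description only. By the solute they are known to carry, 35 members were mitochondrial carriers, 25 carried metals, 22 carried nucleotide sugars or sat in the endoplasmic reticulum and Golgi, 20 carried amino acids or small peptides, 17 carried vitamins, nucleosides and other organic solutes, 12 carried sodium, potassium, chloride or protons, 11 carried glucose or other sugars, 5 carried bicarbonate and other anions, 5 carried phosphate and organic anions, 4 carried lipids or choline and 2 carried lactate. Slc16a6 was a relative of the lactate carriers, and 4 members (Slc7a6os, Slc36a3os, Slc4a1ap and Slc9a3r1) bear the name of a carrier without being one.

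The cells were CD45+ leukocytes, the white blood cells, of sciatic nerves taken at 15 weeks of age from mice of the genotype NOD.AIRE GW/+, which carry a GW allele of Aire, the thymic regulator of self-antigen expression, on the autoimmunity-prone NOD background. Nerves were taken after cardiac perfusion, digested with collagenase and filtered, and the mRNA of single cells was captured in droplets in 3 libraries. Libraries 1 and 2 were read from the 3′ end and library 3 from the 5′ end, so that library 3 and the read end cannot be told apart. All 3 libraries share the genotype, the age and the tissue, and wild-type mice were not analysed here, so every comparison below is between cell classes of the same nerves and none is between genotypes. The labels do not say whether the libraries came from separate animals or from pools, and the only error that a p-value reflects here is the spread over the libraries.

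Leukocytes draw on carriers in different ways. Activated lymphocytes take up glucose and neutral amino acids for growth and release lactate, while macrophages digest engulfed cells and have to move the amino acids, sugars, nucleosides, iron, copper and zinc so released out of phagosomes and lysosomes. Heteromeric amino acid exchangers consist of a light chain of the Slc7 family bound to the shared heavy chain Slc3a2, which carries them to the cell surface.

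The table held 11640 cells, of which 6033, 2333 and 3274 were in libraries 1, 2 and 3, with 22587246, 11398628 and 13791264 UMIs. Median UMIs per cell were 3011, 4156 and 3713. The authors' classes were used as deposited: Mac (macrophages, 581 cells), cDC (conventional dendritic cells, 294), Mixed (291), Treg (1287), Cd4 (3790), Cd8 (2171), gdT/NK/NKT (1047), B (1950), pDC (plasmacytoid dendritic cells, 175) and Plasma (54). The first 8 had at least 20 cells in every library and were tested, whereas pDC had 2 cells in library 2 and Plasma had 7 in library 1, so both are described without a test. The summed level of 6 macrophage markers was 8821 to 24545 CPM (UMIs scaled to a total of 1000000) in the Mac class, 331 to 966 in cDC and at most 73.5 in every other tested class. T cell markers (Cd3e, Cd3d, Cd3g and Trac) summed to 75.1, 9.66 and 760 CPM in the Mac class of libraries 1, 2 and 3, against 2419 to 6519 in the T cell classes, and to 60.5, 6.54 and 399.9 CPM in cDC and 240, 58.5 and 746 in B. Library 3 was thus the highest in all 3 classes, and the part of that RNA in their library 3 values was not tested. Neutrophil markers summed to 138 to 294 CPM in the Mac class with Ly6g at 0, and Schwann cell markers to at most 5.37 CPM. Median UMIs per cell also differed between classes, at 7434 in Mac and 8700.0 in cDC, against 2504.5 (Cd4) to 5056 (gdT/NK/NKT) in the other tested classes, and the part of this depth in the calls was not tested. The class Mixed held T cell markers at 2750 to 4725 CPM. Markers of gamma-delta T cells (Trdc, Trdv4, Tcrg-C1 and Cd163l1) summed to 453 to 3175 CPM there, against 180 to 517 in gdT/NK/NKT.

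UMIs were summed per class and library, and every class was set against the mean log2 level of the 7 other classes in edgeR's quasi-likelihood test with the library as a block. A member was called where the Benjamini-Hochberg adjusted p over all 10895 genes tested was under 0.05, and a call is said to hold where the gene was also called with the same sign when each library was left out in turn. Since the mean is taken over log2 levels, a class can be called higher while a single other class lies above it. The authors drew the classes from the same counts, these genes included, so a p-value says nothing on whether 2 classes differ as cell types. Of the 163 members, 159 were tested, and Slc46a2, Slc19a2, Slc35e3 and Slc30a4 did not pass the filter on low counts. Where a class had no UMI of a gene (Mixed for Slc11a1, Slc7a7, Slc9a7, Slc26a11 and Slc17a6, and B for Slc17a6), or none once a library was left out (as for Slc37a2, Slc46a3, Slc2a6 and Slc39a4), a fitted log2 difference rests in part on the prior count and is no bound.

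Macrophages had the most calls among the solute carriers. In the Mac class 52 of 159 members were called higher and 28 lower, which is 32.7% and 17.6% of them, against 25.8% and 22.1% of all genes tested, and 39 higher and 10 lower calls held, which is 24.5% and 6.29% of the members against 18% and 8.23% of all genes. The median log2 difference in the Mac class was 0.17 over the members and -0.08 over all genes. The Mac counts, here and by solute below, include members such as Slc11a1 and Slc7a8 that reached the UMI threshold only through the Mac class. In the cDC class 35 members were called higher and 23 lower, against 20.8% and 19% of all genes, and the members' shares of 22.0% and 14.5% stood near that background; 18 and 3 of these held, against 12.5% and 4.16% of all genes. The Mixed class had 13 higher and 6 lower calls, against 8.48% and 4.68% of all genes, and 4 higher calls held, against 3.54% higher and 1.1% lower. The Treg class had 26 and 14, against 15.8% and 9.42%, of which 15 and 3 held, against 7.31% and 3.65%. The Cd4 class had 36 and 21, against 19.8% and 10.7%, of which 13 and 6 held, against 8.51% and 4.12%. The Cd8 class had 24 and 17, against 17.8% and 10.1%, of which 10 and 5 held, against 6.75% and 4.52%. The gdT/NK/NKT class had 15 higher and 24 lower calls, against 14.9% and 10.5% of all genes, and 4 and 9 held, against 6.73% and 4.37%. Its calls thus lay more often on the lower side, with 9.43% of the members called higher and 15.1% lower. The members as a whole did not, with a median log2 difference of 0.09, against 0.03 over all genes. The B class had 25 and 27, against 20.8% and 16.4%, of which 19 and 9 held, against 9.72% and 6.67%. Over the 8 classes, 386 of 1272 pairs of a member and a class were called, which is 30.3% and near the 30.9% of all genes, and 167 held, which is 13.1% against 13.7%. Without the library as a block, 32 of the 167 were not called. Of the members tested, 130 were called in at least 1 class, 84 had a call that held, and 29 had no call. The Mac class had the highest mean level of 49 members, cDC of 24, B of 21, Treg of 16, Mixed and Cd4 of 14 each, gdT/NK/NKT of 11 and Cd8 of 10. The same count was not made over all genes, so these numbers are a description only.

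**Figure D1:**
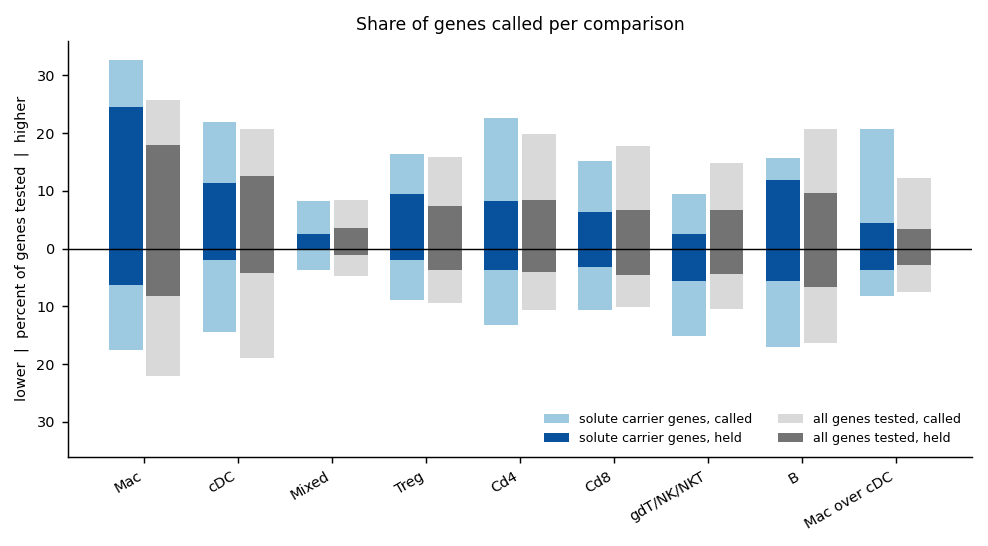
Percent of the solute carriers called (y axis, percent of genes tested) in every class, set against the 7 other classes, and in macrophages over cDC, with the same share for all genes beside it; higher calls are drawn above 0 and lower calls below, and the darker part of each bar is the share whose call held. The Mac bar reaches 32.7% above 0, against 25.8% for all genes.

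The member most set apart by class was Slc11a1, which encodes a metal ion transporter of phagosome membranes (chr1:74375195-74386062, plus strand, build mm10). It had 133, 201 and 179.6 CPM in the Mac class of libraries 1, 2 and 3, against 0 to 7.61 CPM in every other class and library, and 512 of its 530 UMIs over all cells lay in the Mac class. All macrophage values lay far above all others. The Mac mean of 171 ± 34.9 CPM (SD, n = 3) was 212 times the mean of the other 7 classes, and the fitted log2 difference was 8.7 ± 0.25 (SE; edgeR adjusted p = 4.62e-19), or 9.43 without library 1. Slc11a1 reached the UMI threshold of the members only through the Mac class, so this p-value is no independent support for its place there. Against cDC alone, where it had 4 UMIs in all, the log2 difference was 6.3 ± 0.46 (edgeR adjusted p = 5.85e-10), 4.94 without library 1 and 7.06 without library 3.

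Slc7a8, a light chain that exchanges neutral amino acids (chr14:54722209-54781946, minus strand), was likewise found mostly in macrophages among the tested classes. It had 43.8, 78.8 and 40.4 CPM in the Mac class, 17.7, 14.5 and 11 in Mixed from 16 UMIs, and 2.4, 3.62 and 7.61 in cDC from 7. No UMI of it was found in the Treg, Cd4, Cd8, gdT/NK/NKT and B classes, which allows at most 0.689, 0.279, 0.297, 0.546 and 0.441 CPM there (3 counts of each class total, counting error only). The macrophage libraries all lay above the other classes, and the Mac mean of 54.3 ± 21.2 CPM was 20.1 times the mean of the other 7 (edgeR adjusted p = 1.92e-11). Slc7a8 too reached the UMI threshold only through the Mac class, with the same limit on its p-value. The third member shown here is Slc2a6, a sugar carrier of lysosomal membranes (chr2:27021363-27027998, minus strand), which both myeloid classes shared and whose values follow with the sugar carriers. The promoters of these 3 members are printed from RefSeq (GRCm38.p6), 250 bases before to 50 after the start, as 1 metal, 1 amino acid and 1 sugar carrier from among the 5 largest held higher calls in the Mac class (the others were Slc15a3 and Slc7a7), and capitals mark the core GAGGAA bound by PU.1, a regulator of myeloid genes, or its reverse complement.
Slc11a1, chr1:74374953-74375252, plus strand: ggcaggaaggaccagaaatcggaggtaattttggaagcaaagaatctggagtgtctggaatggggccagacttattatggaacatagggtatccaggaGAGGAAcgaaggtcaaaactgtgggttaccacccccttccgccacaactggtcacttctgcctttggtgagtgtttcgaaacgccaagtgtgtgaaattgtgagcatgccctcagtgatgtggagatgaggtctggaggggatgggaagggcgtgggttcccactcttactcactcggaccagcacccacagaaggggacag
Slc7a8, chr14:54781837-54782136, minus strand: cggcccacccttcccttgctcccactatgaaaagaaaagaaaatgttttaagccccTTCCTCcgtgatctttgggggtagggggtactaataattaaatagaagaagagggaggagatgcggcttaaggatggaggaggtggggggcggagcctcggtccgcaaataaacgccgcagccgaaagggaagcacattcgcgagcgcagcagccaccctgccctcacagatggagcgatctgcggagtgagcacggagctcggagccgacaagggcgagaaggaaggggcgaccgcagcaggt
Slc2a6, chr2:27027949-27028248, minus strand: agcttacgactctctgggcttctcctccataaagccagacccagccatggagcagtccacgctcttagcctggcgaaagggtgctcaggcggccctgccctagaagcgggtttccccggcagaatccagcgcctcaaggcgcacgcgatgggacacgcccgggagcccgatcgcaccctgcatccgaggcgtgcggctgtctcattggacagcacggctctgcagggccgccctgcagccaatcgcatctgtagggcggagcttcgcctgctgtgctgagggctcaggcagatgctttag
GAGGAA was found on either strand in the first pair of windows and not in that of Slc2a6. Of the 39 windows of members held higher in the Mac class (31 of 39 such members had an entry), 30.8% held it, against 28.3% of all 32851 windows and 21.6% of the 167 windows of 125 members, so the share stood near that of all genes. The palindrome CACGTG, read by lysosomal gene regulators, was in 12.8%, against 7.15% of all windows, but also in 14.4% of the windows of all matched members. TGANTCA, the site of AP-1 factors, was in 2.56%, against 7.81% of all windows and 5.39% of those of all matched members. These counts describe letters and not bound sites.

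Among the 11 sugar carriers, 4 were held higher (Slc2a6, Slc2a1, Slc37a2 and Slc45a4) and 3 lower (Slc2a3, Slc37a3 and Slc50a1) in macrophages. These are 36.4% and 27.3% of this small group, against 18% and 8.23% of all genes held. Slc2a1, the widespread glucose uptake carrier, had 91.8, 81.7 and 76.3 CPM in the Mac class, against 11 to 77.5 in the other classes, where the highest value was that of B cells in library 3. The Mac mean was 83.3 ± 7.83 CPM and the log2 difference 1.59 ± 0.20 (edgeR adjusted p = 3.19e-07). Slc2a3, the high-affinity glucose carrier of lymphocytes and neurons, went the other way. It had 2.58, 1.49 and 5.99 CPM in the Mac class from 10 UMIs, below every value of the other classes, which ran over 12 to 57.1 CPM, with a log2 difference of -3.1 ± 0.47 (edgeR adjusted p = 4.59e-06). Macrophages also had less of it than cDC (-2.62 ± 0.65, edgeR adjusted p = 0.00423, and -3.35 without library 1). Slc2a3 was called higher in Mixed (1.26) and Cd8 (0.78), but both calls ended without library 1, without library 2 and without the library block, and the Cd8 call also under DESeq2.

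Slc2a6 had 51.6, 43.1 and 148 CPM in the Mac class and 26.4, 83.3 and 76.1 in cDC, against at most 10.9 in any other class. The 5′ library was the highest of the macrophage libraries and library 1 the lowest of the cDC libraries. The log2 difference was 4.56 ± 0.28 in Mac (edgeR adjusted p = 3.07e-13; 5.3 without library 2) and 4.0 ± 0.37 in cDC (edgeR adjusted p = 2.17e-09; 4.74 without library 1). Slc45a4 was held higher in the Mac class by 1.98 ± 0.23 (edgeR adjusted p = 5.72e-08). Outside the test, pDC had 45.9 CPM of Slc37a2, which moves glucose 6-phosphate in the endoplasmic reticulum (37, 0 and 15 UMIs, without scaling). Among the tested classes, Slc37a2 was found in macrophages and in some T cells. It had 34.5, 22.3 and 10.5 CPM in Mac, 24.2, 13 and 15.9 in Treg and 23.7, 13.4 and 17.2 in Cd8, against 5.82, 2.87 and 0.513 in gdT/NK/NKT and 3, 0 and 0 in cDC from 5 UMIs. Held log2 differences were 1.81 ± 0.40 in Mac (edgeR adjusted p = 0.000475), 1.35 ± 0.38 in Treg (edgeR adjusted p = 0.01) and 1.39 ± 0.33 in Cd8 (edgeR adjusted p = 0.00232), which became 2.52, 2.22 and 2.3 without library 1, and the Treg and Cd8 calls ended without the library block. Slc37a3 had 35.4, 62.2 and 66.2 CPM in Mixed, 33.5, 35.1 and 45.5 in Cd4, 4.64, 2.97 and 10.5 in Mac and 3.6, 0 and 7.61 in cDC, and was held higher in Mixed (1.8 ± 0.26), Cd4 (1.19 ± 0.16) and Cd8 (0.95 ± 0.17) and lower in Mac (-1.88 ± 0.33) and cDC (-2.48 ± 0.42). Slc50a1, a sugar efflux carrier, was held higher in B (0.8 ± 0.09, with 113, 162 and 166 CPM) and lower in Mac (-0.9 ± 0.11) and cDC (-1.25 ± 0.14, with 31.2, 43.4 and 57.1 CPM). Slc2a8 and Slc37a4 were not called in any class.

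Lactate leaves and enters cells through the monocarboxylate carriers, and the 2 lactate carriers among the members divided the classes between them. Slc16a3, the exporter of glycolytic cells, had 106, 120.4 and 213 CPM in Mac and 62.9, 80.3 and 132 in Treg. Next came cDC with 26.4, 29 and 49.5 CPM, and the lowest were gdT/NK/NKT with 4.53, 3.34 and 8.72 and B with 3.68, 0 and 7.28. Each Mac value lay above the Treg value of the same library, though the groups overlapped across libraries, and both lay above all other classes. The Mac mean of 146 ± 57.7 CPM gave a log2 difference of 3.08 ± 0.16 (edgeR adjusted p = 1.38e-14), and the Treg mean of 91.6 ± 35.7 CPM gave 2.31 ± 0.16 (edgeR adjusted p = 9.47e-11). Held lower calls were found in gdT/NK/NKT (-2.32 ± 0.29, edgeR adjusted p = 6.92e-07) and B (-2.59 ± 0.30, edgeR adjusted p = 1.28e-07), and macrophages exceeded cDC by 2.04 ± 0.27 (edgeR adjusted p = 2.62e-06). The Cd8 call (-0.83) ended without library 3, and the cDC call (0.75) ended without library 1 and without library 3.

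Slc16a1, which moves lactate both ways, was highest in cytotoxic and innate-like lymphocytes. It had 17, 26.7 and 15 CPM in Cd8 and 15.5, 16.7 and 13.3 in gdT/NK/NKT, with log2 differences of 1.61 ± 0.23 (edgeR adjusted p = 6.52e-06) and 1.22 ± 0.27 (edgeR adjusted p = 0.00122). The Cd4 class had 13.7, 11.3 and 11.9 CPM, and its call (0.92) ended without library 1 and without library 3. In cDC it had 2 UMIs, both in library 1, and its pooled level was 0.0649 (95% counting interval 0.00784 to 0.236) times that of the other classes, a call that ended without library 1. The gdT/NK/NKT and Cd4 calls of Slc16a1 and the cDC and Cd8 calls of Slc16a3 also ended without the library block. A further lactate carrier, Slc16a7, had 71 UMIs and was no member.

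**Figure D2:**
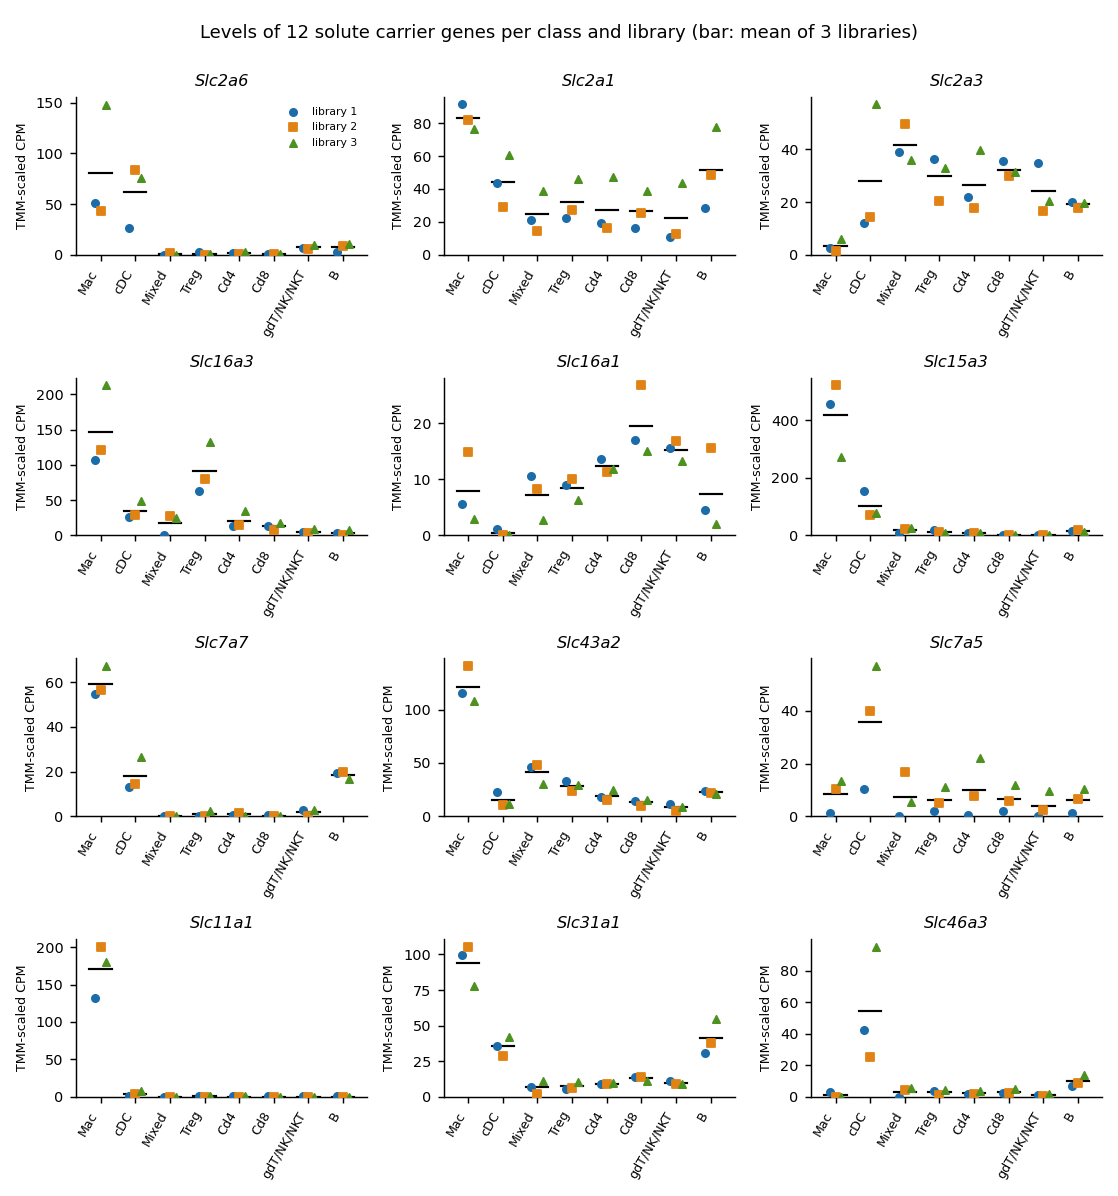
Level of 12 members (y axis, CPM after scaling of the library totals, with its own range for each gene) in the 8 tested classes, Mac at the left; points are the 3 libraries and bars their mean. Slc11a1 stands at 133 to 201 CPM in Mac and at most 7.61 elsewhere, and Slc16a3 is high in Mac and Treg.

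Amino acid carriers were the group with the most held higher calls in macrophages. Of 20 tested, 12 were called higher and 4 lower in the Mac class, 11 and 2 of which held. These are 60% and 20% called, against 25.8% and 22.1% of all genes, and 55% and 10% held, against 18% and 8.23%, with a median log2 difference of 1.23 against -0.08 over all genes. The exchanger light chain Slc7a7, which exports arginine and lysine, had 54.7, 56.5 and 67.4 CPM in Mac, 13.2, 14.5 and 26.6 in cDC and 19.4, 19.9 and 16.6 in B, and no UMI was found in Mixed, while the other classes reached at most 2.59. Macrophages lay above both others, and the held log2 differences were 5.41 ± 0.34 (Mac, edgeR adjusted p = 1.81e-12), 3.25 ± 0.57 (cDC, edgeR adjusted p = 6.67e-05) and 3.48 ± 0.41 (B, edgeR adjusted p = 3.46e-07; 4.21 without library 3). On the linear scale the B mean was 1.61 times the mean of the other 7 classes. The gene overlaps Oxa1l on the opposite strand, and the sources used here do not say whether reads were counted by strand.

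The heavy chain Slc3a2 had 453, 541 and 278 CPM in Mac, against 180.2, 113 and 107 in B. It was held higher in Mac (0.85 ± 0.11, edgeR adjusted p = 4.63e-07) and lower in B (-0.97 ± 0.13, edgeR adjusted p = 1.26e-06). Slc7a5, the light chain that supplies large neutral amino acids to activated cells, was highest among the tested classes in cDC, with 10.2, 39.8 and 57.1 CPM. The spread between those libraries was wide, the log2 difference was 2.61 ± 0.38 (edgeR adjusted p = 4.73e-06), macrophages had less than cDC (-2.34 ± 0.52, edgeR adjusted p = 0.00153), and both calls ended without the library block. Outside the test, Slc7a5 had 31.8 CPM in pDC (7, 2 and 27 UMIs) and 21.4 in Plasma, over all cells and without scaling.

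Of the lysosomal peptide and histidine carriers, Slc15a3 had its highest means among the tested classes in Mac and cDC, and Slc15a4 in B. The untested pDC class had more Slc15a4 than these, at 171 CPM over all its cells without scaling. Slc15a3 had 456, 520.2 and 272 CPM in Mac and 153, 72.4 and 76.1 in cDC, against 2.5, 1.21 and 1.66 in Cd8 and 1.94, 0.478 and 1.03 in gdT/NK/NKT. Macrophages lay above every other class, with a log2 difference of 5.41 ± 0.14 (edgeR adjusted p = 9.08e-21), and cDC had 3.2 ± 0.21 (edgeR adjusted p = 2.07e-12), while Cd8 (-3.43 ± 0.35), gdT/NK/NKT (-4.28 ± 0.42) and Cd4 (-0.95 ± 0.25) were held lower. Macrophages exceeded cDC by 1.93 ± 0.21 (edgeR adjusted p = 2.09e-07). Slc15a4, which Toll-like receptor signalling in endosomes depends on, was shared with B cells. It had 58.8, 46.5 and 77 CPM in B, 71.9, 39.8 and 49.5 in cDC and 42.8, 49 and 25.4 in Mac, with held log2 differences of 1.91 ± 0.19 (edgeR adjusted p = 6.74e-09), 1.9 ± 0.24 (edgeR adjusted p = 4.6e-07) and 1.21 ± 0.23 (edgeR adjusted p = 8.02e-05), and it was held lower in Treg (-1.24 ± 0.28) and Cd4 (-1.01 ± 0.23). The Cd4 calls of Slc15a3 and Slc15a4 ended without the library block, and both genes overlap a gene on the opposite strand (Tmem132a and Glt1d1).

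Several uptake and efflux carriers followed the same division between macrophages and lymphocytes. Slc43a2, a neutral amino acid carrier that needs no heavy chain, had 116, 141 and 108 CPM in Mac, against 5.26 to 47.7 elsewhere, and a log2 difference of 2.65 ± 0.15 (edgeR adjusted p = 4.56e-14). It was held lower in Cd8 (-1.02 ± 0.18) and gdT/NK/NKT (-1.82 ± 0.23), and macrophages exceeded cDC by 2.71 ± 0.27 (edgeR adjusted p = 4.33e-08; 3.35 without library 1). Slc16a10, which releases aromatic amino acids, had 38.7, 49 and 73.3 CPM in Mac (3.51 ± 0.21, edgeR adjusted p = 1.6e-13), and its pooled level was 24 (95% counting interval 9.18 to 89.1) times that of cDC. It was also held higher in gdT/NK/NKT (1.12 ± 0.25, with 9.06, 12.4 and 15.4 CPM), below macrophages. The taurine carrier Slc6a6 was high in both myeloid classes, at 212, 238 and 213 CPM in Mac and 181, 214 and 194 in cDC (1.83 ± 0.11 and 1.62 ± 0.13; edgeR adjusted p = 1.71e-13 and 8.84e-11), and held lower in Cd8 (-0.88), B (-0.64) and Cd4 (-0.54). The gdT/NK/NKT call of Slc16a10 and the Cd4 call of Slc6a6 ended without the library block. The proton-coupled carriers of lysosomes Slc36a1 (2.83 ± 0.33) and Slc36a4 (1.25 ± 0.32) and the glutamine carrier relative Slc38a6 (1.67 ± 0.32) completed the held higher calls in Mac.

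The held lower calls in macrophages were both glutamine carriers. Slc38a1 had 53.1, 43.1 and 37.4 CPM in Mac, below every value of the other classes, against 229, 182 and 90.0 in B. It was held lower in Mac (-1.36 ± 0.17, edgeR adjusted p = 2.18e-07) and Treg (-0.67 ± 0.14, edgeR adjusted p = 0.000844) and higher in B (0.76 ± 0.13, edgeR adjusted p = 3.18e-05). Slc1a5 had 95.5, 78.8 and 174 CPM in Mixed, against 21.7, 14.9 and 34.4 in Mac and 23.6, 22.1 and 48.9 in B. It was held higher in Mixed (1.41 ± 0.17) and lower in Mac (-1.12 ± 0.19) and B (-0.78 ± 0.16). Slc38a9, the lysosomal arginine sensor of the growth kinase mTORC1, was held higher in B (1.05 ± 0.17, edgeR adjusted p = 3.14e-05, with 65.4, 42.1 and 26.5 CPM). Slc38a2 was not called in any class, and no call of Slc7a1 or Slc7a6 held. The Slc1a5 calls and the Treg call of Slc38a1 ended without the library block. Slc7a11 with 50 UMIs and Slc7a2 with 46 were no members.

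Of the metal carriers, 12 of 24 tested were called higher in the Mac class and 1 lower, and 9 of the higher calls held. These are 50% and 4.17% called, against 25.8% and 22.1% of all genes, and 37.5% held higher, against 18%, with a median log2 difference of 0.67 against -0.08 over all genes. They included carriers of iron, copper and zinc. Beside Slc11a1, its relative Slc11a2, the importer of ferrous iron, had 21.7, 29.7 and 12 CPM in Mac, against 2.21 to 15.9 elsewhere (1.78 ± 0.26, edgeR adjusted p = 2.24e-06). The copper importer Slc31a1 had 99.5, 106 and 77.8 CPM in Mac, 30.7, 37.6 and 54.6 in B and 36, 29 and 41.9 in cDC, and 5.72, 6.51 and 10.6 in Treg. Macrophages lay above every other class (2.82 ± 0.16, edgeR adjusted p = 8.36e-14), B (1.39 ± 0.18) and cDC (1.23 ± 0.24) were held higher, and Treg (-1.3 ± 0.26), Cd4 (-1.02 ± 0.21) and gdT/NK/NKT (-0.96 ± 0.24) were held lower. The related Slc31a2, a regulator of copper release from endosomes, had 96.4, 110.0 and 62.9 CPM in Mac and 43.8, 57.9 and 45.7 in cDC, against 4.53, 4.78 and 2.56 in gdT/NK/NKT. Its held log2 differences were 3.29 ± 0.16 in Mac (edgeR adjusted p = 2.54e-15), 2.23 ± 0.22 in cDC (edgeR adjusted p = 7.63e-09) and -1.88 ± 0.29 in gdT/NK/NKT (edgeR adjusted p = 1.51e-05). Slc31a1 overlaps Cdc26 on the opposite strand.

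Of 16 members tested from the zinc carrier families Slc30 (exporters) and Slc39 (importers), 6 were called higher and 1 lower in the Mac class, which is 37.5% and 6.25% against 25.8% and 22.1% of all genes, and 5 of the higher calls held. Of these, 1 was an exporter of 5 tested (20%) and 4 were importers of 11 (36.4%). Both families together had 31.25% held higher, against 18% of all genes, so the exporters stood near that background. The exporter Slc30a1 had 45.9, 40.1 and 32.9 CPM in Mac, against 0 to 14.7 elsewhere, with a log2 difference of 2.1 ± 0.20 (edgeR adjusted p = 2.49e-09), and exceeded cDC by 2.26 ± 0.35 (edgeR adjusted p = 2.44e-05). The importer Slc39a1 had 60.3, 99.6 and 68.9 CPM in Mac and 47.4, 79.6 and 38.1 in cDC (1.79 ± 0.15 and 1.29 ± 0.19; edgeR adjusted p = 1.95e-10 and 5e-06). Slc39a14, which imports zinc, iron and manganese (1.48 ± 0.34), Slc39a11 (1.24 ± 0.32) and Slc39a7, which releases zinc from the endoplasmic reticulum (1.0 ± 0.17), were also held higher in Mac. The exporter Slc30a5 instead had its lowest mean in Mac, with 20.1, 23.8 and 18 CPM, and was held higher in B (1.07 ± 0.14, with 44.7, 37.6 and 72.3 CPM). The importer Slc39a6 had 17.5, 10.4 and 19.5 CPM in Mac, and its lower call there (-0.67) ended without library 1, without library 2 and without the library block. The heme carrier Slc48a1 had 33.5, 71.3 and 32.9 CPM in Mac, and its call (0.78, edgeR adjusted p = 0.00181) ended without library 2. Away from macrophages, Slc39a4 was held higher in Treg (1.54 ± 0.35; 2.53 without library 2), a call that ended without the library block. The magnesium carrier relatives Slc41a3 and Slc41a2 had 9.54, 13 and 17.4 CPM in Treg and 7.88, 4.43 and 12 in B. Slc41a3 was held higher in Treg (1.27 ± 0.24) and lower in Cd8 (-1.46 ± 0.29), and Slc41a2 was held higher in B (2.24 ± 0.39). Slc39a8 had 2 UMIs in B, and its pooled level there was 0.102 (95% counting interval 0.0122 to 0.377) times that of the other classes, a call that ended without library 1 and without library 3. The iron exporter Slc40a1 was not analysed here.

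**Figure D3:**
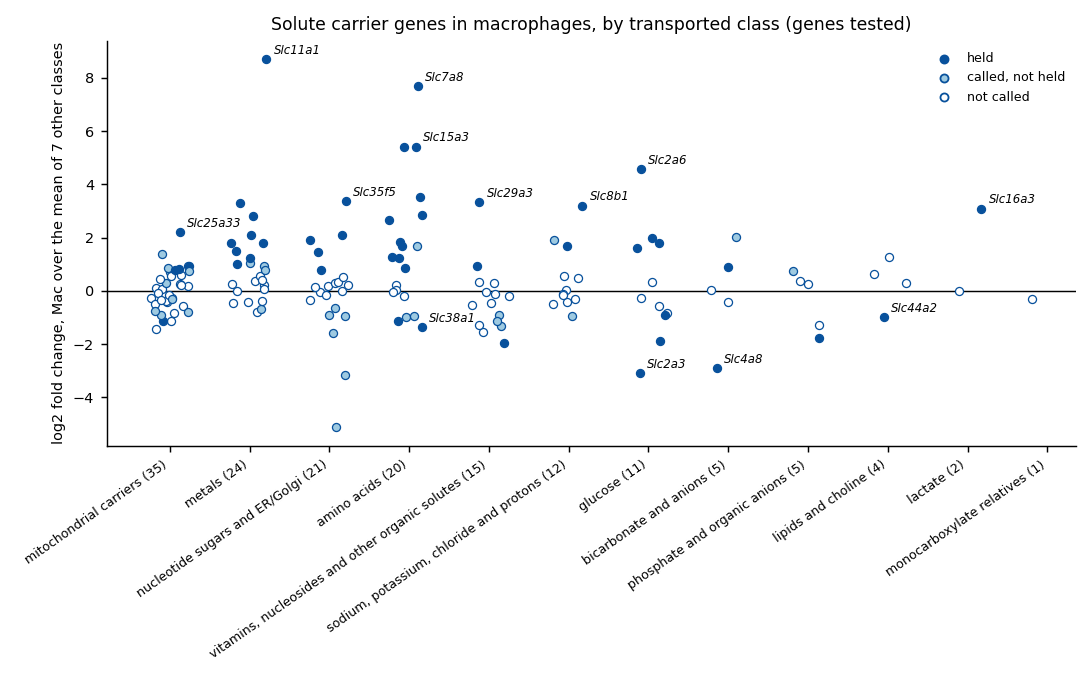
Log2 difference of each tested carrier between the Mac class and the mean of the 7 other classes (y axis), grouped by the solute carried (x axis); filled points are calls that held, pale points calls that did not, and white points were not called. Of 20 amino acid carriers 11 are held higher and 2 lower, and of 24 metal carriers 9 are held higher and none lower.

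The mitochondrial carriers were the group with the most members. Of 35 tested, 10 were called higher and 5 lower in the Mac class, 4 and 1 of which held. The 28.6% called higher stood near the 25.8% of all genes and the 14.3% called lower below the 22.1%, while 11.4% and 2.86% held, against 18% and 8.23% of all genes. The median log2 difference was 0.07. The ADP/ATP carrier Slc25a5 had 567, 600.5 and 546 CPM in Mac, above the range of 255 to 471 in the other classes (0.78 ± 0.09, edgeR adjusted p = 1.14e-07), and was held lower in Cd4 (-0.5 ± 0.10, with 261, 269.8 and 255 CPM). Its near-identical partner Slc25a4 was held higher in cDC (0.52 ± 0.11, with 245, 257 and 171 CPM) and Cd8 (0.47 ± 0.09, with 247, 242 and 159 CPM) and lower in Mac than in cDC (-0.73 ± 0.14), and all these calls ended without the library block. Reads that fit both copies could be split between them, so this contrast of the pair is uncertain. The pyrimidine nucleotide carrier Slc25a33 had 56.7, 78.8 and 25.4 CPM in Mac, against 5.55, 8.77 and 5.82 in Cd4. It was held higher in Mac (2.2 ± 0.24, edgeR adjusted p = 2.93e-08) and lower in Cd4 (-1.28 ± 0.29). The iron importer Slc25a37 was held higher in B (1.03 ± 0.18) and Mac (0.95 ± 0.20) and the glutathione carrier Slc25a39 in Mac (0.83 ± 0.14), and these 3 calls ended without the library block. The ATP-magnesium carrier Slc25a24 had 46, 43.6 and 41.4 CPM in Mixed, above every value elsewhere, 15, 2.97 and 8.98 in Mac and 6.57, 4.43 and 7.28 in B. It was held higher in Mixed (1.25 ± 0.27) and Cd4 (0.95 ± 0.15) and lower in Mac (-1.14 ± 0.27) and B (-1.93 ± 0.26). Slc25a42, which brings coenzyme A into mitochondria, had 7.9, 8.46 and 8.72 CPM in Cd4, above the range of 0 to 4.53 elsewhere (2.07 ± 0.32, edgeR adjusted p = 1.55e-05), and Slc25a40 was held higher in Cd8 (1.05 ± 0.17, with 12, 21 and 16.9 CPM). No call of the phosphate carrier Slc25a3 or the citrate carrier Slc25a1 held.

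Carriers of nucleosides, vitamins and other organic solutes set off several classes. Slc46a3, a lysosomal carrier, marked conventional dendritic cells with 42.6, 25.3 and 95.2 CPM, against 0 to 13.5 in the other classes. All cDC values lay above all others, and the log2 difference was 4.13 ± 0.29 (edgeR adjusted p = 9.84e-12; 5.0 without library 1). The pooled macrophage level, from 6 UMIs, was 0.0356 (95% counting interval 0.0128 to 0.0801) times that of cDC, and B cells, with 7.09, 8.86 and 13.5 CPM, were held higher as well (1.26 ± 0.32; 1.98 without library 1), a call that ended without the library block. Slc29a3, the lysosomal nucleoside carrier, had 121, 101 and 106 CPM in Mac and 83.3, 18.1 and 95.2 in cDC, against 5.82, 3.82 and 3.08 in gdT/NK/NKT. Its held log2 differences were 3.32 ± 0.20 (Mac, edgeR adjusted p = 1.53e-13), 2.45 ± 0.25 (cDC, edgeR adjusted p = 1.52e-08) and -2.02 ± 0.35 (gdT/NK/NKT, edgeR adjusted p = 8.66e-05). The plasma membrane nucleoside carrier Slc29a1 instead was held higher in Cd4 (1.36 ± 0.21, with 26.7, 33.8 and 41.8 CPM). Slc28a2, which takes up nucleosides with sodium, was held higher in B (1.45 ± 0.23), Treg (1.3 ± 0.24) and Cd4 (1.15 ± 0.21), the last of which ended without the library block. In cDC it had 1 UMI, and its pooled level was 0.0169 (95% counting interval 0.000429 to 0.0946) times that of the other classes. The vitamin C carrier Slc23a2 was held higher in Mac (0.95 ± 0.23).

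Beside Slc25a42, the largest held higher calls in the CD4 T cells were Slc17a6, Slc5a3 and Slc22a15. Slc22a15, an organic solute carrier, had 155, 126 and 100.5 CPM in Cd4, above the range of 2.21 to 97.3 in the other classes. It was held higher in Cd4 (2.04 ± 0.16, edgeR adjusted p = 5.66e-10), Treg (1.12 ± 0.19) and Cd8 (1.07 ± 0.18) and lower in B (-1.53 ± 0.27). Slc5a3, the myo-inositol carrier, had 114, 74.5 and 23.6 CPM in Treg and 108, 60.5 and 28 in Cd4, in both classes lowest in the 5′ library. Its log2 differences were 2.28 ± 0.17 (Treg, edgeR adjusted p = 2.5e-10) and 2.19 ± 0.15 (Cd4, edgeR adjusted p = 6.09e-11), and since it shares its locus and strand with Mrps6, reads of the pair cannot be told apart. Slc17a6, a vesicular glutamate carrier best known from neurons, was held higher in Cd4 (3.35 ± 0.66, 4.12 without library 1), at the low level of 5.34, 4.7 and 5.82 CPM. It was not particular to Cd4, since its pooled level in the Cd8 class, without scaling, was at least as high. Most of the Cd8 UMIs lay in cluster 4 (below). With no UMI in Mixed and B, the size of that log2 difference rests in part on the prior count. Slc35g1 was held higher in Cd8 (2.1 ± 0.32), and the opposite-strand transcript Slc36a3os, no carrier itself, was held higher in Treg (1.63 ± 0.29) and lower in gdT/NK/NKT (-2.49 ± 0.49; -3.17 without library 2).

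Of the 12 carriers of sodium, potassium, chloride or protons, 3 were called higher and 1 lower in Mac (25% and 8.33%, against 25.8% and 22.1% of all genes). In B, 3 were called higher and 2 lower (25% and 16.7%, against 20.8% and 16.4%). Held higher were 16.7% in Mac, against 18% of all genes, and 25% in B, against 9.72%. The share called higher in Mac thus stood near the background, while that called lower in Mac lay below it and that held higher in B above it. The endosomal sodium/proton exchanger Slc9a9 had 36.7, 30.1 and 98.6 CPM in Cd4, against 4.99, 0 and 12 in B, and was held higher in Cd4 (1.23 ± 0.16, edgeR adjusted p = 1.81e-06) and lower in B (-2.19 ± 0.28, edgeR adjusted p = 7.08e-07). Its Golgi relative Slc9a7 had 16.5, 15.5 and 44.7 CPM in B (3.19 ± 0.31, edgeR adjusted p = 1.82e-08). Slc8b1, the mitochondrial sodium/calcium exchanger, had 45.4, 78.8 and 79.3 CPM in Mac and was held higher there (3.2 ± 0.22, edgeR adjusted p = 5.34e-12) and in cDC (2.94 ± 0.28, edgeR adjusted p = 3.03e-09). The bicarbonate carrier Slc4a8 had 29.9, 35.4 and 19.3 CPM in Treg (2.16 ± 0.24, edgeR adjusted p = 1.19e-07), against 1.55, 0 and 1.5 in Mac, below every value elsewhere (-2.9 ± 0.56, edgeR adjusted p = 0.000121). The sulfate carrier relative Slc26a11 was held higher in gdT/NK/NKT (2.11 ± 0.40) and Cd4 (1.99 ± 0.37), and the urea carrier Slc14a1 in gdT/NK/NKT (1.37 ± 0.20, with 16.8, 24.4 and 23.6 CPM) and Treg (1.21 ± 0.21), while it was held lower in Mac (-1.97 ± 0.38). Slc12a2, which takes up sodium, potassium and chloride, had 18, 1.49 and 12 CPM in Mac, and its higher call there (1.89) ended without library 1. In cDC it had 1 UMI, at 0.0701 (95% counting interval 0.00177 to 0.394) times the pooled level of the other classes, and that call too ended without library 1.

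Set directly against cDC, macrophages had 33 members called higher and 13 lower, against 12.3% and 7.55% of all genes, which is 20.8% and 8.18% of the members. Of these, 7 higher and 6 lower calls held, against 3.41% and 2.75% of all genes. The 5 held higher calls of the largest size were Slc11a1, Slc16a10, Slc7a8, Slc43a2 and Slc30a1, and the others were Slc15a3 and Slc16a3. Slc46a3, Slc2a3 and Slc7a5 led the lower calls. Many calls of this comparison ended without library 1, which held 232 of the 294 cDC cells, among them the higher calls of Slc7a7 (1.89, which also ended without the library block), Slc37a2 (3.61, with no UMI left in cDC without library 1), Slc11a2 (2.12) and Slc31a1 (1.39).

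The classes too small to test had carrier profiles of their own, given as CPM over all cells of a class without scaling. In plasmacytoid dendritic cells the members with the largest ratio to all other cells were Slc41a2, Slc27a1, Slc15a4, Slc30a4 and Slc29a3. Slc41a2, a magnesium carrier relative, had 58, 3 and 31 UMIs in libraries 1, 2 and 3 and 81.3 CPM, against 2.77 CPM in all other cells, a ratio of 29.4. Slc15a4 had 126, 3 and 65 UMIs and 171 CPM, against 22.6 in all other cells (a ratio of 7.6). Each of the 3 libraries held UMIs of both genes. The fatty acid carrier Slc27a1 (7.99 times all other cells) and Slc29a3 (7.09 times) followed, whereas the zinc carrier Slc30a4 (7.52 times) had 28, 1 and 0 UMIs, none of them in library 3. In plasma cells, which secrete antibody, the leading members were Slc33a1, Slc7a5, Slc35b1, Slc39a7 and Slc39a11. Slc33a1, which brings acetyl-CoA into the endoplasmic reticulum, had 38.3 CPM, against 10.1 in all other cells (a ratio of 3.78). Slc7a5 (2.72 times all other cells, with 0, 7 and 22 UMIs), Slc35b1, which brings ATP into the endoplasmic reticulum (2.7 times), Slc39a7 (2.57 times) and Slc39a11 (2.49 times) followed. No spread is given for these values, which rest on few cells.

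Within a class, the authors' clusters were compared in a fit over 12 clusters and 10545 genes, of which 154 were members. Cluster 4 over cluster 3, the pair of Cd8 clusters, had 10 members called higher and 6 lower, against 7.85% and 6.86% of all genes, and 5 and 1 of these held, against 1.85% and 1.81%. Slc37a2 had 34.8, 23.2 and 28.5 CPM in cluster 4, against 4.49, 2.73 and 7.72 in cluster 3, and the groups did not overlap (2.43 ± 0.46, edgeR adjusted p = 0.00027). Slc17a9, which loads nucleotides into vesicles, had 2.34, 4.64 and 4.08 CPM in cluster 4, against 15, 18.2 and 25.5 in cluster 3. It was the held lower call (-2.41 ± 0.32, edgeR adjusted p = 8.15e-07), and the groups again did not overlap. Slc22a15 had 91, 101 and 111 CPM in cluster 4, against 47.2, 38.2 and 27.3 in cluster 3 (1.46 ± 0.27, edgeR adjusted p = 0.000158). The peroxisomal carrier Slc25a17 had 39.1, 46.4 and 68.7 CPM, against 12.7, 20.9 and 35 in cluster 3 (1.22 ± 0.23, edgeR adjusted p = 0.000289). Each library was higher in cluster 4 for Slc22a15, Slc25a17 and Slc5a3, the last at 64.8, 43.3 and 16.3 CPM against 34.4, 11.8 and 7.72 in cluster 3 (1.2 ± 0.27, edgeR adjusted p = 0.00168). Slc17a6 had 66 UMIs in cluster 4 and 3 in cluster 3, a pooled ratio of 17 (95% counting interval 5.58 to 84.7). Slc16a3 had 19.9, 11.6 and 27.4 CPM in cluster 4, against 1.5, 4.55 and 10.7 in cluster 3, and its call (1.84, edgeR adjusted p = 0.000763; 2.53 without library 3) ended without library 1. Apart from Slc17a9, the held calls and that of Slc16a3 ended without the library block.

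The same sugar phosphate carrier led the pair of Cd4 clusters. Cluster 6 over cluster 0 had 5 members called higher and 1 lower, against 3.03% and 3.89% of all genes, and 2 higher calls held, against 1.05% higher and 1.55% lower. Slc37a2 had 29.4, 27.2 and 33.8 CPM in cluster 6, against 3.1, 5.95 and 3.48 in cluster 0, with no overlap (2.89 ± 0.49, edgeR adjusted p = 5.71e-05). Slc16a6, a relative of the lactate carriers that overlaps Amz2 on the opposite strand, had 81.6, 60.4 and 49.2 CPM in cluster 6, against 35.2, 25.9 and 19.4 in cluster 0, again with no overlap (1.24 ± 0.21, edgeR adjusted p = 5.36e-05). Both calls ended without the library block. Cluster 9 over cluster 8, both in the class gdT/NK/NKT, had 4 members called higher and 3 lower, against 1.73% and 1.88% of all genes, and by edgeR 0 held, against 0.446% of all genes in each direction, with 18 members at an unadjusted p under 0.05 and 5 called by DESeq2 and 5 by limma voom.

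**Figure D4:**
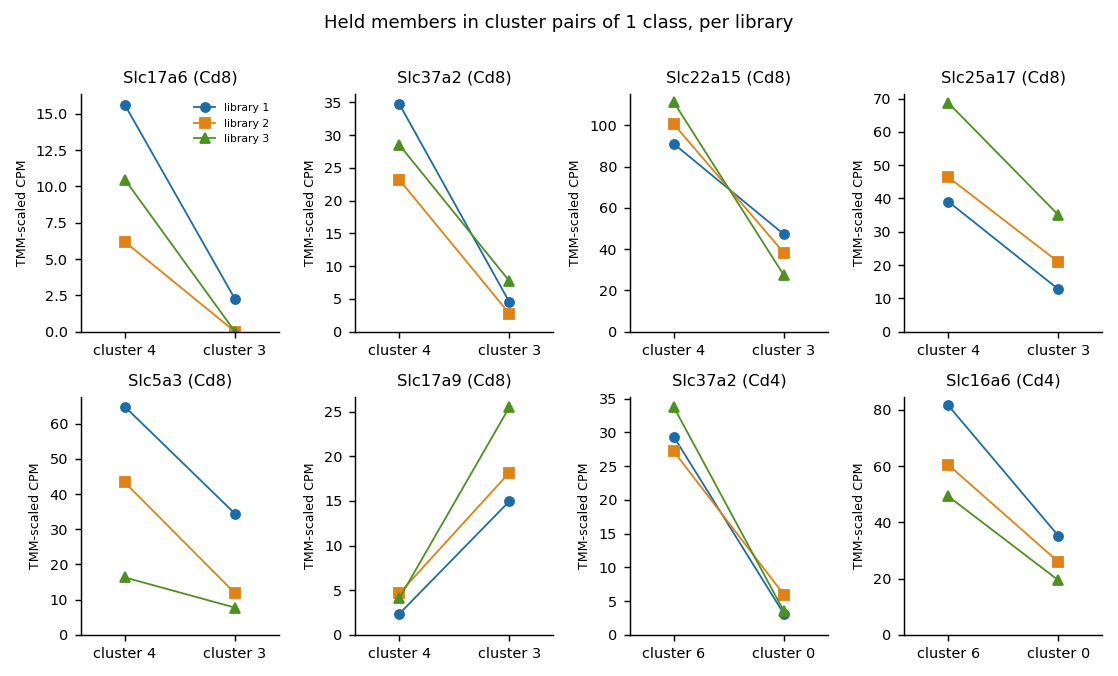
Level of members in pairs of clusters of 1 class (y axis, CPM after scaling of the library totals), with cluster 4 left of cluster 3 and cluster 6 left of cluster 0; points are the 3 libraries, joined within a library. Slc37a2 is higher in cluster 4 than in cluster 3 and higher in cluster 6 than in cluster 0 in each library.

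Enzymes and binding proteins of the same pathways were counted from 4 lists of 56 genes. Of the glucose and lactate list, 9 of 15 tested were called higher and 3 lower in macrophages, 9 and 1 of which held, which is 60% and 20% called and 60% and 6.67% held. Over all genes in this class 25.8% and 22.1% were called and 18% and 8.23% held, and the Mac counts of the other lists stand against the same shares. Hexokinase 2 (Hk2), which traps glucose in the cell, had 342, 169 and 138 CPM in Mac, against 1.56 to 145 elsewhere (3.71 ± 0.15, edgeR adjusted p = 8.23e-17). Pkm, the last enzyme of glycolysis (1.2 ± 0.10), and Bsg, the chaperone of the lactate carriers (0.87 ± 0.11), were held higher too, and Txnip, which limits glucose uptake, lower (-0.94 ± 0.25). The Treg class, the other class with high Slc16a3, had 8 called higher and 2 lower on this list, 5 and 1 of which held (53.3% and 13.3% called, against 15.8% and 9.42% of all genes), with Ldhb at 2.0 ± 0.30, Pkm at 0.73 ± 0.11 and Hk2 at -2.01 ± 0.29, and the Pkm and Hk2 calls there ended without the library block. The B class had 3 higher and 10 lower (2 and 7 held), or 66.7% called lower, against 16.4% of all genes. The gdT/NK/NKT class had 1 higher and 7 lower (1 and 6 held), or 46.7% called lower, against 10.5%. B and gdT/NK/NKT were the classes with the lowest Slc16a3. The cDC class, next in Slc16a3 after Mac and Treg, had 5 and 4 called (33.3% and 26.7%, against 20.8% and 19%). Cd4 had 4 and 3 (26.7% and 20%, against 19.8% and 10.7%), Cd8 1 and 3 (6.67% and 20%, against 17.8% and 10.1%) and Mixed 2 and 1 (13.3% and 6.67%, against 8.48% and 4.68%). A link between this list and Slc16a3 was not tested.

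Of the amino acid list, 8 of 13 tested were called higher and 1 lower in macrophages, and 6 of the higher calls held (61.5% called higher and 46.2% held higher). The arginine-splitting enzyme Arg1 had 387, 189 and 135 CPM in Mac, against 0 to 41.4 elsewhere. It was held higher in Mac (7.94) and also in Mixed (4.93). The glutamine-making enzyme Glul had 134, 172 and 153 CPM in Mac, against 17.7 to 78.8 elsewhere (2.0 ± 0.17, edgeR adjusted p = 3.21e-10). The Mac class thus had the highest Glul of the tested classes and the lowest mean level of the glutamine carriers Slc38a1 and Slc1a5. Of the iron list, 5 of 10 tested were called higher and 1 lower, and all 5 higher calls held (50%). Hmox1, which splits heme, had 84.6, 99.6 and 160.2 CPM in Mac, against 0 to 8.39 elsewhere (5.59 ± 0.21, edgeR adjusted p = 1.31e-16), and the ferritin chains Ftl1 (2.69 ± 0.07) and Fth1 (2.7 ± 0.09) were held higher. Of the zinc and copper list, 4 of 8 were called higher in macrophages and 3 of these calls held (50% and 37.5%), among them the copper pump Atp7a (2.09 ± 0.23) and the metal-binding Mt1 (3.15 ± 0.26). Mt1 reached 2.76 to 362 CPM elsewhere, and the cDC class held higher for it as well (3.55 ± 0.28).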

How the data were processed

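The deposited table held UMI counts per gene and cell of 3 libraries, with the authors' classes (celltype) and clusters (seurat_clusters). The submitters' processing notes list Cell Ranger 5.0.1, Seurat 4.0 and the build mm10, without roles, and whether reads were counted by strand is not given in the sources used here. In the cell table the name of library 1 ends in "pos", which the labels do not explain. The percent of mitochondrial UMIs per cell that the authors deposited was not used, and all deposited cells were kept. Scrublet (scanpy 1.11.5) marked 84 doublets (75, 8 and 1 in libraries 1, 2 and 3), which were left out only in an alternative, and 6 barcodes were shared between libraries 1 and 2.

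Counts were summed per class or cluster and library where every library had at least 20 cells, and tested with edgeR 4.0.16 (R 4.3.3; TMM scaling, filterByExpr, glmQLFit and glmQLFTest) with the library as a block, since cells of all classes come from the same libraries. A library's deviations from the means of any pair of classes correlated at 0.284 to 0.915 over 84 correlations. Levels are CPM of the summed counts after TMM scaling, given as the mean ± SD over libraries, and a count of 0 allows up to 3 counts. Fold changes are log2 differences ± SE. Intervals are exact and cover counting error only. Gene positions and overlaps were taken from the GENCODE M21 annotation of the same build.

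Members and lists were chosen with earlier results of these data known. The text names the main carriers of each solute (41 of 45 listed were members), in each comparison the 5 largest higher and 3 largest lower held calls with at least 30 UMIs, and in pDC and Plasma the 5 largest ratios with at least 10 UMIs. Other names were chosen after their values were seen. 1 gene that this rule names is not reported here. On simulated counts the Mac comparison recovered 70.7% of 99 genes changed by a log2 difference of 1 and 92.8% of 97 changed by 2, among 10099 genes. Cluster 4 over 3 recovered 54.3% of 92 and 95.9% of 97, among 9490 genes. Of the genes called, 4.19% and 5.3% were not among those changed. The simulated counts had no library effect and no other class differences, and the rule for held calls was not applied to them. Alternatives were RLE scaling, DESeq2 1.42.0, limma voom (limma 3.58.1), no filter on low counts, no library block, each library left out, no doublets, no cluster 5 (median of 861 UMIs per cell), and unscaled CPM, the last added after the data were seen.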

Additional observations from a re-analysis of the deposited data

How the results depend on the processing

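No result changed its direction under any alternative run. RLE scaling, DESeq2, limma voom, no filter on low counts, leaving out doublets and, for the comparisons between classes, leaving out cluster 5 kept every count of called members within 1.5 times of the reported one. Leaving out the library block (an unpaired analysis of sums that share libraries) lowered the counts of called members to 24 in B (from 52 with the block), 15 in Cd4 (57), 15 in Cd8 (41), 13 in Treg (40), 12 in gdT/NK/NKT (39), 33 in cDC (58), 21 in macrophages over cDC (46), 55 in Mac (80) and 13 in Mixed (19). Calls of pathway partners, counted as pairs of a gene and a class over the 8 tested classes, fell to 84 (150). In the cluster comparisons without the block, edgeR called 1 member for cluster 4 over 3 (16 with the block), 0 for cluster 6 over 0 (6) and 0 for cluster 9 over 8 (7), with 12, 9 and 11 members at an unadjusted p under 0.05; with the block DESeq2 called 16, 9 and 5 and limma voom 17, 8 and 5. Leaving out each library in turn gave 30 to 42 called members in B, 29 to 41 in Cd4, 24 to 33 in Cd8, 26 to 32 in Treg, 22 to 23 in gdT/NK/NKT, 6 to 15 in Mixed, 53 to 75 in Mac, 30 to 52 in cDC, 14 to 42 in macrophages over cDC, 7 to 11 for cluster 4 over 3, 2 to 3 for cluster 6 over 0 and 0 to 3 for cluster 9 over 8. Called pairs of a pathway partner and a class then numbered 109 to 146. The cause of these differences was not tested. Of the single members named, 91 calls ended without the block, and 18 levels moved by more than the spread between libraries in unscaled CPM, an alternative chosen after seeing the data. Members with few UMIs in a class are limited by depth, and the values of pDC and Plasma by their few cells.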
